A study of Mus musculus with 9 samples.

Results

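Complex I, or NADH:ubiquinone oxidoreductase, is the entry point of electrons from NADH into the respiratory chain of mitochondria. The genes described here are 36 nuclear-encoded subunits, taken from a list of symbols. The list was chosen with earlier results of these data known, so it is not independent of them. All 36 were found among the 22527 gene symbols of the deposited table, each on 1 line, and all 36 passed the filter on low values (at least 1 FPKM in at least 3 libraries), beside 10374 genes tested in all. One of them, Ndufa4, was long counted with complex I and is now assigned to cytochrome oxidase, which leaves 35 subunits of complex I proper.

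The series profiled ribosome-bound mRNA in 3 fat depots of adult mice: brown fat (BAT), the inguinal white depot (iWAT, subcutaneous fat) and the epididymal white depot (eWAT, visceral fat), with 3 libraries each. All mice were of strain C57BL/6, aged 8 weeks, labelled wild type and without any treatment named. Ribosomes with their mRNA were pulled down from tissue homogenates with an antibody against GFP. The labels do not say which cells carried GFP or which promoter drove it; the deposited table's name holds the word adiponectin, the product of an adipocyte gene, without stating its role. Nor do they say whether the 3 libraries of a depot came from separate animals, so every p-value here measures the spread between these libraries only. The values are FPKM, that is, fragments per kilobase of transcript scaled to library size, so levels can be compared between genes as far as the length scaling holds. Because tissue pieces were used, fewer cells of a type and less RNA per cell cannot be told apart.

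Complex I has an L shape, with a peripheral arm in the matrix and an arm in the inner membrane. In the peripheral arm the N module oxidises NADH and the Q module passes the electrons to ubiquinone, and the proximal and distal parts of the membrane arm pump protons. The proton gradient drives ATP synthesis, and in brown adipocytes the uncoupling protein Ucp1 lets it dissipate as heat. Brown fat is known for its dense, cristae-rich mitochondria. The pumping core of the membrane arm is encoded by mitochondrial DNA, and those genes were not analysed here.

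The libraries were uneven. Depth, estimated from single-read steps among low values, was 11.6 to 21.5 M reads in BAT, 2.92 to 4.7 M in iWAT, 16.5 M in eWAT 1 and 4.46 to 4.61 M in eWAT 2 and 3. Ucp1 was at 2434 to 3054 FPKM in BAT and at 0.63 to 3.38 in the white libraries, which includes the library BAT 3, whose tissue field names inguinal fat while its title and source name brown fat. All 6 adipocyte markers were present in every library. The 10 skeletal muscle markers summed to 61 to 151 FPKM in BAT, 1831 to 2525 in iWAT, 228 in eWAT 1 and 1106 to 1311 in eWAT 2 and 3, and 8 of the 10 stayed below 1 FPKM in every BAT library. The 6 markers of epithelium and skin summed to 21.3 to 40.5 FPKM in BAT, 131 to 359 in iWAT and 53.6 to 178 in eWAT, with Krt18 and Epcam at 0 in BAT and Krt18 at 0 in iWAT. Markers of macrophages and of endothelium summed to at most 4.19 and 3.71 FPKM in any library, with Cd68 at 0 in iWAT. Mesothelial markers reached at most 4.68 FPKM. The part that depth and the muscle and epithelial RNA play in the differences below was not tested.

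Short sequences from the start of the genes show what some members have in common beyond their function. Of the 36 members, 33 matched the RefSeq promoter table (build GRCm38.p6), which holds 250 bases before and 50 after each transcription start. Ndufs1, Ndufb9 and Ndufa2 were not in it. Exact matches to 4 motifs were sought on both strands. The letters AAGATGGC, bound by the factor YY1, occurred in 7 of 33 members (21.2%) against 2.75% of all 32851 promoters. In all 7 they lay on the gene's own strand, between bases 23 and 46 after the start. The windows of 30 bases are shown because the motif spans the start codon ATG in each; capitals mark the match.
Ndufa3 (chr7:3617384-3617413, plus strand): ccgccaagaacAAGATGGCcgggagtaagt
Ndufc1 (chr3:51408915-51408944, minus strand): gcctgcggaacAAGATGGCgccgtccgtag
Ndufs7 (chr10:80249462-80249491, plus strand): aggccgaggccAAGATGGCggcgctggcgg
Ndufa9 (chr6:126849097-126849126, minus strand): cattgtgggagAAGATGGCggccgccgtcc
Ndufs6 (chr13:73328433-73328462, minus strand): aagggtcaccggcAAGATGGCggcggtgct
Ndufs4 (chr13:114388045-114388074, minus strand): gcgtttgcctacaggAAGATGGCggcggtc
Ndufb8 (chr19:44555393-44555422, minus strand): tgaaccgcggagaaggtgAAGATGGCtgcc

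Read from the gene annotation (GENCODE vM1 on build mm9), the same letters sat on the annotated start codon in 9 of 36 members (25%), the 7 above with Ndufa2 and Ndufa6, against 545 of 22594 protein-coding genes (2.41%). The core letters of the NRF1 site, GCATGCGC, a known element of respiratory gene promoters, occurred in 3 of 33 members (9.09%) against 2.71% of all promoters. They are shown with the match in capitals; the Ndufa11 window holds a second, overlapping match on the opposite strand.
Ndufa6 (chr15:82354356-82354385, minus strand): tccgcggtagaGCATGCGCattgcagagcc
Ndufa8 (chr2:36049328-36049357, minus strand): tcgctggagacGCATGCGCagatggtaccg
Ndufa11 (chr17:56717693-56717722, plus strand): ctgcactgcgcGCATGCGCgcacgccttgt

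The core of the GABP site, CCGGAAGT, occurred in 1 member, Ndufs3 (3.03% against 3.89% of all promoters), and the site of estrogen-related receptors, TCAAGGTCA, in none (0.423% of all). The 250 bases before the start are printed for 2 members on chromosome 1, Ndufa10, which had the largest difference between BAT and iWAT, and Ndufb3, which had the smallest of the members with an entry. Neither holds any of the 4 motifs. The Ndufa10 stretch was 57.6% G or C with 22 CG pairs, and that of Ndufb3 65.6% with 19. The members' median was 57.6% with 15 CG pairs over 35 promoter entries, against 52.4% and 6 over all promoters.
Ndufa10 (chr1:92473759-92474008, minus strand): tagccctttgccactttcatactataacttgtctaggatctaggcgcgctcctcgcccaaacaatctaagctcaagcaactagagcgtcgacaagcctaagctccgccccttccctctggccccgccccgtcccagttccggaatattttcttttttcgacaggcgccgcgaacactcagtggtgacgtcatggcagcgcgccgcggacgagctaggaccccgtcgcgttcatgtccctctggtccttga
Ndufb3 (chr1:58586147-58586396, plus strand): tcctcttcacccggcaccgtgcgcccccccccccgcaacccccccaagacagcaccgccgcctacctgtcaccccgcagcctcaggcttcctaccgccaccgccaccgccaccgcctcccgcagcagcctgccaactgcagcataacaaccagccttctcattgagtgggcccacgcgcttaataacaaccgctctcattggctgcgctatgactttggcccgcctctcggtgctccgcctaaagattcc

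The members were highly expressed in every library, and none was at 0 in any. Together they made up 7.04%, 6.97% and 7% of the FPKM sum in the 3 BAT libraries, 2.81%, 1.64% and 1.94% in iWAT, and 2.84%, 2.29% and 2.11% in eWAT. The 3 BAT libraries were nearly equal and lay above all 6 white libraries, whose depots overlapped. The median member had 1080, 1137 and 1132 FPKM in the BAT libraries, 359, 163 and 183 in those of iWAT, and 363, 285 and 284 in those of eWAT.

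The level of the members spanned a wide range. The highest mean was 47.1 times the lowest in BAT, 37.1 times in iWAT and 52.2 times in eWAT. The highest in each depot was Ndufa4, now assigned to cytochrome oxidase, so these ratios do not describe complex I alone. Complex I holds nearly all of its subunits in equal copy number. Among subunits of complex I proper, BAT means ran from 108 FPKM for Ndufa11 to 3144 FPKM for Ndufb8. The coding sequences of Ndufa4 and Ndufa11 have copies elsewhere in the genome, so both values are uncertain. The longest annotated Ndufa11 transcript has 2661 bases, of which 432 are coding, and the part of this in its low level was not tested. Ndufa4 was the highest member in every library, with 5429, 4642 and 5188 FPKM in the BAT libraries, 1597, 782 and 981 in those of iWAT, and 1787, 1483 and 1382 in those of eWAT. Ndufa11, an accessory subunit of the proximal arm, had the lowest mean in each depot, with 108 ± 5.92 FPKM in BAT, against 30.2 ± 12.1 in iWAT and 29.7 ± 1.61 in eWAT (SD, n = 3). Ndufs1, the largest subunit, which carries iron-sulfur clusters of the N module, was similarly low, at 173 ± 17.6, 37.6 ± 3.75 and 34.8 ± 4.35 FPKM. Behind Ndufa4 in BAT came Ndufb8, Ndufa1 and Ndufa3, subunits of the membrane arm, at 3144 ± 93.1, 3030 ± 214 and 2976 ± 292 FPKM.

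The order of the levels was much alike in the 3 depots. Across the 36 members, log2 levels in iWAT and eWAT had a Pearson r of 0.98 (Spearman rho 0.97), against 0.85 (0.82) for BAT with iWAT and 0.91 (0.87) for BAT with eWAT. These are descriptions: the same genes, of the same length and base composition, were read in the same libraries. Members with a shorter coding sequence tended to have higher levels, with r = -0.51 in BAT, -0.59 in iWAT and -0.57 in eWAT for coding lengths of 213 to 2184 bases. FPKM is itself scaled by transcript length, and the part of that scaling in this relation was not tested. The 36 genes lie on 15 chromosomes, at most 5 on one.

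**Figure D1:**
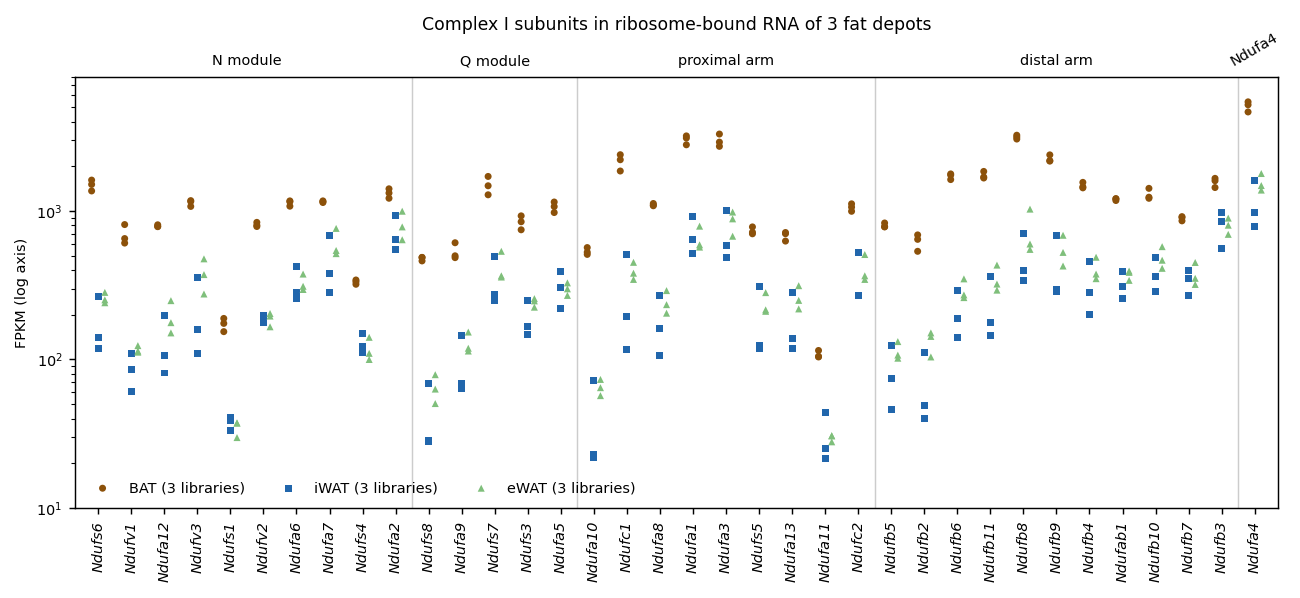
Level of each of the 36 members in each library, in FPKM on a log axis, grouped by part of the complex and ordered within each by the difference between BAT and iWAT. Each point is 1 library; the 3 BAT points lie above every white point for all 36 members.

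BAT was compared with each white depot to ask which subunits set the ribosome-bound mRNA of a thermogenic depot apart. Every one of the 36 members was higher in BAT than in iWAT by limma, where 34.5% of all tested genes were, and none was lower, where 22.9% were. Against eWAT 35 of 36 were higher (20.2% of all tested genes) and none was lower (13.5%). All 3 BAT libraries lay above all 3 iWAT libraries for 36 of 36 members (38.5% of all tested genes), and above all 3 eWAT libraries for 36 of 36 (32%). The median log2 difference of the members was 2.19 against iWAT and 1.86 against eWAT, beside 0.23 and -0.02 over all tested genes. Means were at least 2 times higher in BAT for 34 members against iWAT and for 33 against eWAT. Both comparisons use the same 3 BAT libraries. All log2 differences are of log2(FPKM + 1), a pseudocount that weighs little at these levels.

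How large the difference was depended on the scale. FPKM columns in this table sum to 672506 to 683879 in BAT and to 473426 to 564830 in the white libraries. With each column rescaled to the same sum, the members' median was 1.74 against iWAT and 1.58 against eWAT, the median of all genes moved to -0.17 and -0.29, and 34 members were higher in each comparison. Of 11447 genes tested after rescaling, 2542 were higher in BAT against iWAT and 1554 against eWAT, in place of 3583 and 2094 of 10374. As a share of calls rather than of tested genes, they were 42.2% and 41.6%, in place of 60.1% and 60%. Relative to the median of all genes the members stood 1.96 higher than in iWAT as deposited, 1.91 higher after rescaling and 1.44 higher after quantile normalization, and against eWAT 1.89, 1.87 and 1.43 higher. With each library left out in turn, 36 members were called higher than in iWAT each time, and 33 to 36 than in eWAT. With eWAT 1 as the only library of its depot 20 were called; in that fit the spread comes from the other depots, eWAT is assumed to vary like them, and every member's difference from eWAT was still positive.

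The N module takes the electrons from NADH. Against iWAT all 10 of its members were higher in BAT and against eWAT 9 of 10, with median differences of 2.14 and 1.93. Ndufv1, the subunit that binds NADH and the flavin FMN (chromosome 19, 4007497 to 4012806, 10 exons, build mm9), had 608, 810 and 652 FPKM in BAT, against 110, 85.6 and 61.2 in iWAT and 124, 114 and 112 in eWAT. The lowest BAT library was thus far above the highest white one. Its log2 difference of 2.54 (SE 0.25, limma adjusted p = 4.36e-05) was the largest of the module against eWAT, and it was 3.02 (SE 0.25, adjusted p = 1.6e-05) against iWAT.

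Ndufs6, an accessory subunit that binds zinc (chromosome 13, 73457286 to 73465990, 3 exons), had the largest N-module difference against iWAT. It had 1614, 1364 and 1509 FPKM in BAT, against 267, 119 and 141 in iWAT and 283, 252 and 241 in eWAT. The log2 differences were 3.17 (SE 0.29, limma adjusted p = 3e-05) and 2.53 (SE 0.29, adjusted p = 0.000125). The white depots overlapped through iWAT 1, which stood within the eWAT range.

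Ndufa2, a small accessory subunit of the same module, had the smallest difference of all 36 members. It had 1410, 1321 and 1218 FPKM in BAT, against 937, 554 and 643 in iWAT and 996, 781 and 640 in eWAT. The groups did not overlap, but the gap to the highest white library was small. The mean was 1.85 times higher than in iWAT (log2 difference 0.92, SE 0.26, limma adjusted p = 0.013) and 1.63 times higher than in eWAT (0.73, SE 0.26, adjusted p = 0.0544). The second value missed the threshold of 0.05, which does not show that the depots were alike. The first was no longer called with columns rescaled to the same sum (0.47, adjusted p = 0.108) or quantile normalized (0.19, adjusted p = 0.507). Without iWAT 1, iWAT 2 or eWAT 1 the eWAT difference was called, with adjusted p of 0.0138, 0.0357 and 0.032.

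The other N-module members lay between these. Ndufv2, which carries an iron-sulfur cluster next to Ndufv1, had 808 ± 27 FPKM in BAT, against 187 ± 11 in iWAT and 188 ± 20.1 in eWAT (SD, n = 3), with nearly the same difference from both white depots, 2.11 and 2.10 (SE 0.19 each). Ndufs1 likewise differed by 2.17 and 2.28 (SE 0.21 each). Ndufs4, an accessory subunit whose loss in mice gives a Leigh-like disease, was at 333 ± 11 FPKM against 127 ± 20 and 117 ± 21, differences of 1.39 and 1.52 (SE 0.22 each). For Ndufa7, at 1155 ± 14.6 FPKM against 449 ± 211 and 607 ± 136, the eWAT difference of 0.95 (SE 0.32, limma adjusted p = 0.0416) was close to the threshold, and it was not called when BAT 1, BAT 2, BAT 3, iWAT 3, eWAT 2 or eWAT 3 was left out (adjusted p 0.057 to 0.135). It was also lost with no filter on low values (adjusted p = 0.0925), with columns rescaled to the same sum (adjusted p = 0.0927) and with quantile normalization (0.40, adjusted p = 0.276), which ended the iWAT call too (0.66, adjusted p = 0.0638). Ndufa12, Ndufv3 and Ndufa6, accessory subunits, differed from iWAT by 2.71, 2.62 and 1.85.

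The Q module links the iron-sulfur clusters to ubiquinone. All 5 members were higher in BAT in both comparisons, with medians of 2.19 against iWAT and 1.84 against eWAT. Ndufs8, a core subunit with iron-sulfur clusters (chromosome 19, 3908870 to 3912717, 7 exons), had 486, 487 and 461 FPKM in BAT, against 69.3, 28.4 and 28 in iWAT and 79, 50.5 and 63.2 in eWAT. It had the largest difference of the module in both, 3.61 (SE 0.34, limma adjusted p = 3.31e-05) and 2.90 (SE 0.34, adjusted p = 0.000131), that is, means 11.4 and 7.44 times higher. The BAT libraries were close to each other, and iWAT 1 stood well above iWAT 2 and 3.

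The smallest differences of the module were those of Ndufa5, an accessory subunit, against iWAT and of Ndufs3, a core subunit, against eWAT. Ndufa5 had 976, 1071 and 1149 FPKM in BAT, against 393, 222 and 305 in iWAT and 328, 299 and 270 in eWAT, a log2 difference of 1.83 (SE 0.24) from each white depot, with limma adjusted p of 0.000242 and 0.000293. Ndufs3 measured 747, 927 and 846 FPKM in BAT, against 251, 147 and 167 in iWAT and 257, 225 and 248 in eWAT, differences of 2.18 (SE 0.24, adjusted p = 8.25e-05) and 1.78 (SE 0.24, adjusted p = 0.000324). No BAT library overlapped a white one for either gene. Ndufs7, which holds the last iron-sulfur cluster before ubiquinone, measured 1490 ± 212 FPKM in BAT, against 340 ± 135 in iWAT and 420 ± 99.8 in eWAT. Ndufa9, which binds NADPH, was at 532 ± 68.6, 92.6 ± 45.7 and 129 ± 20.8.

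The proximal membrane arm lies next to the Q module. Its 9 members were all higher in BAT in both comparisons, with medians of 2.16 and 1.83. Ndufa10, an accessory subunit with a fold like that of nucleoside kinases (chromosome 1, 94335587 to 94370437, 10 exons, build mm9), had 528, 567 and 510 FPKM in BAT, against 72, 22 and 22.9 in iWAT and 73.4, 57.1 and 64.6 in eWAT. Its differences of 3.97 (SE 0.39, limma adjusted p = 4.4e-05) and 3.03 (SE 0.39, adjusted p = 0.00024) were the largest of all 36 members, and its means were 13.7 and 8.23 times higher in BAT. Without iWAT 1 the difference from iWAT was 4.52, and without iWAT 2 it was 3.68.

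Ndufc2 had the smallest difference of the proximal arm in both comparisons. It had 995, 1117 and 1061 FPKM in BAT, against 526, 268 and 271 in iWAT and 509, 366 and 346 in eWAT. The differences were 1.65 (SE 0.29, limma adjusted p = 0.00124) and 1.39 (SE 0.29, adjusted p = 0.00455), again with no overlap. Ndufc1, its neighbour in the complex, differed more, with 2154 ± 272 FPKM in BAT against 274 ± 208 in iWAT and 393 ± 53.4 in eWAT (3.23 and 2.45, SE 0.44 each). Ndufc1 also had the widest spread of any member in iWAT, with a coefficient of variation of 75.9%, and its iWAT difference ran from 2.76 without iWAT 2 to 3.82 without iWAT 1. Ndufa8, Ndufa1, Ndufa3, Ndufs5, Ndufa13 and Ndufa11 differed from iWAT by 2.72, 2.17, 2.16, 2.14, 2.03 and 1.87. Ndufa13, known also as GRIM-19, was nearer to eWAT, with 682 ± 48.1 FPKM in BAT against 261 ± 48.5 there (1.40, SE 0.32, adjusted p = 0.007).

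The distal membrane arm holds most Ndufb subunits and Ndufab1. All 11 members were higher in BAT in both comparisons, and their medians, 2.53 against iWAT and 2.06 against eWAT, were the highest of the 4 groups; the difference between groups was not tested. Ndufb5, a subunit that crosses the membrane (chromosome 3, 32635912 to 32650488, 6 exons), had 830, 781 and 784 FPKM in BAT, against 124, 46.2 and 75 in iWAT and 132, 107 and 102 in eWAT. Its differences were 3.38 (SE 0.32, limma adjusted p = 3.46e-05) and 2.81 (SE 0.32, adjusted p = 0.000113). The highest white library was at 132 FPKM, far under the lowest BAT library at 781.

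Ndufb3, another membrane subunit (chromosome 1, 58643228 to 58652808, 3 exons), had the smallest difference of the distal arm. It had 1598, 1438 and 1658 FPKM in BAT, against 974, 556 and 853 in iWAT and 895, 802 and 696 in eWAT. The differences were 1.01 (SE 0.25, limma adjusted p = 0.00681) and 0.98 (SE 0.25, adjusted p = 0.0133). The groups did not overlap. The eWAT difference was not called without BAT 1, BAT 3 or eWAT 3 (adjusted p 0.0523 to 0.0595), and the iWAT difference was not called after rescaling columns to the same sum (0.57, adjusted p = 0.0539) or quantile normalization (0.27, adjusted p = 0.32), nor was the eWAT difference after the latter (0.33, adjusted p = 0.278).

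Among the rest of the distal arm, Ndufb2 had 623 ± 79.4 FPKM in BAT, against 66.4 ± 38.5 in iWAT and 132 ± 25.1 in eWAT (3.35 and 2.24, SE 0.35 each). Ndufb6 was at 1716 ± 78.6, 207 ± 76.4 and 294 ± 48.3 FPKM (3.10 and 2.55, SE 0.28 each), and Ndufb11 at 1736 ± 96.8, 228 ± 117 and 349 ± 73.1 (3.04 and 2.33, SE 0.33 each). Ndufab1, the mitochondrial acyl carrier protein, which also serves fatty acid synthesis in the matrix, was at 1198 ± 19.4, 321 ± 67.5 and 374 ± 28.3 FPKM (1.92 and 1.68, SE 0.22 each). Ndufb8, Ndufb9, Ndufb4, Ndufb10 and Ndufb7 differed from iWAT by 2.79, 2.53, 2.32, 1.80 and 1.41. Ndufa4, the member now placed in cytochrome oxidase, differed by 2.24 (SE 0.28) and 1.72 (SE 0.28), near the median of the complex I subunits.

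**Figure D2:**
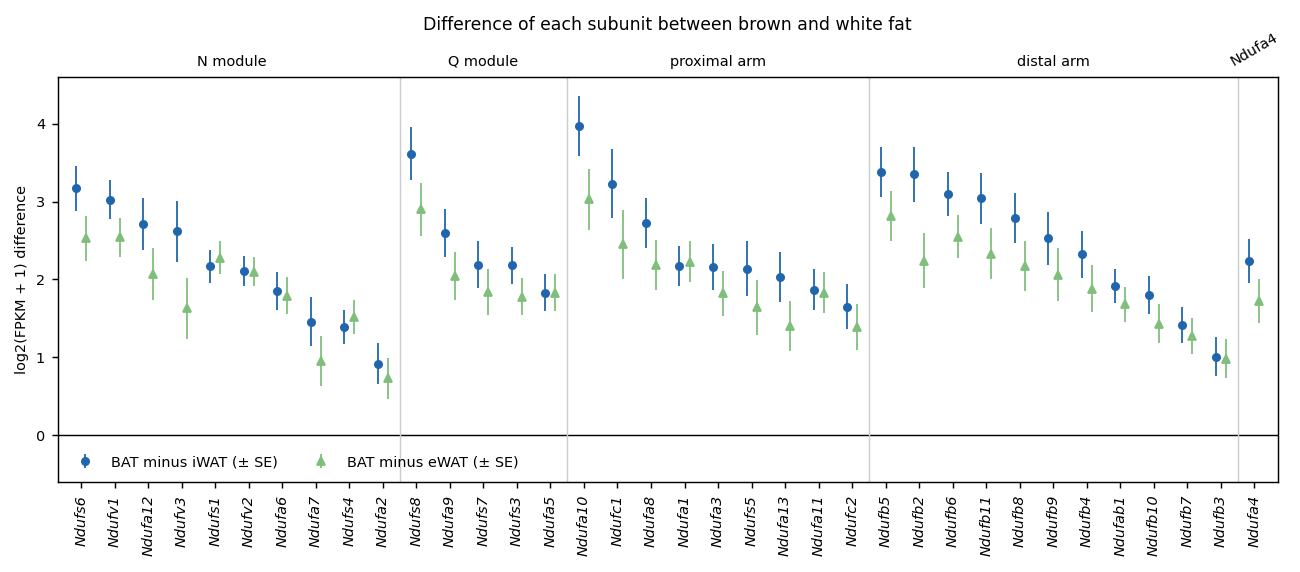
Log2 difference of each member between BAT and each white depot, on log2(FPKM + 1), with the standard error of the limma fit as bars. All differences are above 0, from 0.73 for Ndufa2 against eWAT to 3.97 for Ndufa10 against iWAT.

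The members did not all differ by the same amount. When the values of each library were centred on the median of the 36 members, a comparison chosen after the data were seen, 10 members lay above that median in BAT relative to iWAT by limma (1.74% of all tested genes) and 10 below it (87.1%). Against eWAT 8 lay above (2.06%) and 7 below (85.5%). The median of the members is the reference here, so a share of genes on each side follows from the centring. Because most tested genes were called after centring, the adjustment raised p only slightly, for Ndufa5 against iWAT from 0.0249 to 0.0288 (limma). These calls are therefore close to unadjusted tests. Ndufa10 stood 1.63 above the median against iWAT (adjusted p = 0.000111), with Ndufs8 at 1.28, Ndufb5 at 1.05, Ndufb2 at 1.01, Ndufc1 at 0.90 and Ndufs6 at 0.83. Ndufa2 stood lowest at -1.42 (adjusted p = 0.00011), then Ndufb3 at -1.32, Ndufs4 at -0.95, Ndufb7 at -0.93 and Ndufa7 at -0.87. Every module had members on both sides: 2 above and 4 below in the N module, 1 and 1 in the Q module, 2 and 2 in the proximal arm, and 5 and 3 in the distal arm. The counts below the median moved with the samples and their weights. Against iWAT 19 members lay below with array weights, 12 without iWAT 1 and 6 without BAT 1 or BAT 3. Against eWAT the counts were 3 without BAT 1, BAT 3 or eWAT 1 and 4 without BAT 2 or eWAT 2. Shares over all tested genes are not given for these settings, so these counts show only how the calls moved.

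Between the white depots no member was called higher (0.231% of all tested genes) or lower (1.5%) in iWAT by limma, and 3 members had an unadjusted p under 0.05. The median difference, iWAT minus eWAT, was -0.48 beside -0.18 over all genes, and 32 of 36 members had a negative one. Over all 10374 tested genes 4054 had a positive one, so most genes leaned the same way. Ndufb2 was the farthest, at 111, 39.9 and 48.7 FPKM in iWAT against 143, 104 and 151 in eWAT (log2 difference -1.11, SE 0.35, limma adjusted p = 0.105). Ndufv3 (-0.99, SE 0.39, limma adjusted p = 0.154) and Ndufa10 (-0.94, SE 0.39, limma adjusted p = 0.17) followed. Of the few calls among all genes, 13.3% were higher in iWAT as deposited and 23.8% to 29.8% under 3 other scalings, where no member was called either. For 1 of 36 members every iWAT library lay below every eWAT library (19.5% of all tested genes).

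The iWAT libraries themselves differed. iWAT 2 lay below all 3 eWAT libraries for 33 members and iWAT 3 for 28, while iWAT 1 did so for 1 and stood within the eWAT range for 24. iWAT 1 was the highest of its depot for 35 of 36 members, and eWAT 1 for 32. These counts for single libraries were not made over all tested genes, so they do not show a trait particular to the members. The median coefficient of variation of a member was 5.63% in BAT, 40.2% in iWAT and 17.6% in eWAT. Without iWAT 1, 22 members were called lower in iWAT than in eWAT, where 27.8% of all tested genes were, and the median was -0.78 beside -0.25 over all genes. Ndufa10 was then at -1.49 (SE 0.17, limma adjusted p = 0.00112) and Ndufb2 at -1.55 (SE 0.22, adjusted p = 0.00211), whereas Ndufs4 was at 0.01 (SE 0.19) and Ndufv2 at -0.05 (SE 0.16). Over all tested genes, same-numbered libraries of the white depots deviated together from their depot means. So did the unlike-numbered iWAT 2 with eWAT 3 (correlation of 0.228) and iWAT 3 with eWAT 2 (0.105). Over the 36 members alone same-numbered libraries did so for numbers 1 and 2 (correlations of 0.478 and 0.433) and not for number 3 (-0.214). There iWAT 3 with eWAT 2 reached 0.446. With the number as a block in a fit of these depots alone 2 members, Ndufb2 and Ndufv3, were called lower in iWAT (10.2% of all tested genes).

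Other values set iWAT 1 apart as well. All 6 adipocyte markers were highest there within the depot, for instance Adipoq, the adipokine adiponectin, at 2169, 456 and 771 FPKM in iWAT 1 to 3. So were 7 of the 10 muscle markers, for instance the creatine kinase Ckm at 94, 25.3 and 39.5 FPKM, while Acta1 was at 668, 1369 and 953. In eWAT, by contrast, library 1 was highest for 5 of 6 adipocyte markers and for none of the 10 muscle markers, with Ckm at 0.0802 FPKM against 24.8 and 19.5. The epithelial sum was lowest in library 1 of each white depot, at 131 and 53.6 FPKM, through Krt5 and Krt14. Krt10 went the other way, at 2.06, 0.451 and 0.558 FPKM in iWAT 1 to 3 and 2.38, 1.79 and 2.24 in eWAT 1 to 3. The part of these in the spread of the members was not tested.

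**Figure D3:**
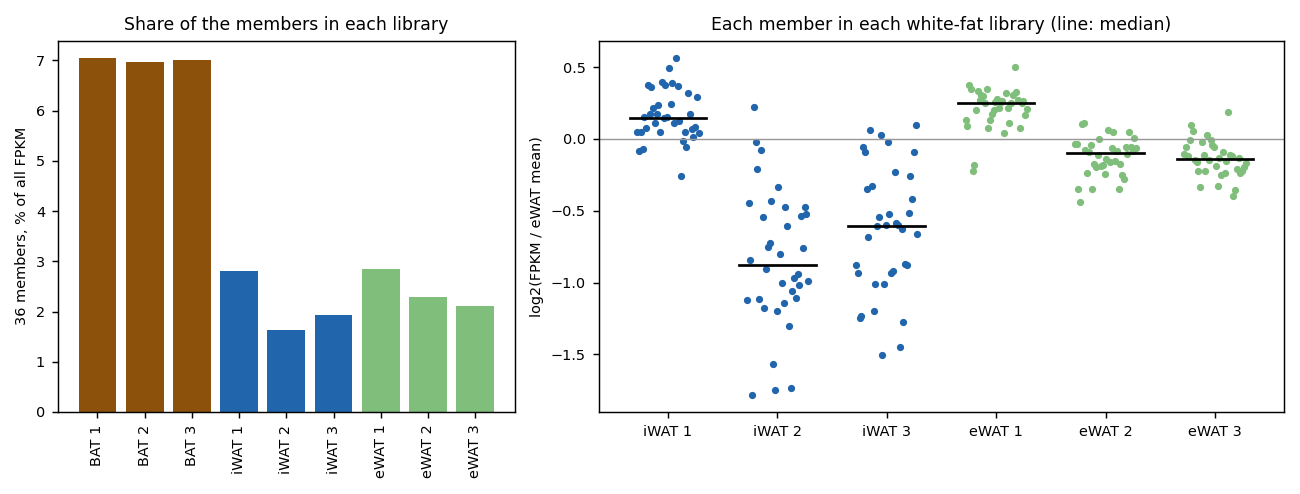
Left, the summed FPKM of the 36 members as a percentage of all FPKM in each library (bars from 0). Right, log2 of each member's FPKM over its eWAT mean in the 6 white libraries, 1 point a member, with a line at the median; points of iWAT 1 lie near those of eWAT 1, and most of iWAT 2 and 3 lie below 0.

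Genes related to complex I behaved like the members only in part. Ndufa4l2, a paralog of Ndufa4 known from hypoxia, did not pass the filter, with means of 0.187, 0.354 and 0.137 FPKM. Of 16 assembly factors, which build the complex and are not part of it, 14 were higher in BAT against iWAT (34.5% of all tested genes) and 9 against eWAT (20.2%). None was lower (22.9% and 13.5% of all tested genes), and the medians were 1.85 and 0.93. Ndufaf4 had the largest difference, 27 ± 1.94 FPKM against 2.24 ± 1.12 in iWAT and 4.08 ± 0.533 in eWAT (3.16 and 2.47). Foxred1 (2.74 and 1.88), Ecsit (2.72 and 1.95) and Tmem186 (2.65 and 2.08) followed. Dmac1 measured 74.3 ± 9.72 FPKM in BAT, against 67.5 ± 33.2 in iWAT and 112 ± 21.3 in eWAT and was not called in either (adjusted p 0.543 and 0.175); its difference from iWAT was between -0.21 and 0.23 over 4 scalings, and 1 assembly factor was called lower than in eWAT after rescaling or quantile normalization.

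The other respiratory complexes gave a scale for the members. All 4 subunits of complex II (succinate dehydrogenase), 9 of 9 of complex III and 10 of 10 of complex IV (the isoforms used in most tissues) were higher in BAT in both comparisons (34.5% of all tested genes against iWAT and 20.2% against eWAT). This held also under 3 other scalings, except that 9 of 10 of complex IV passed against eWAT after quantile normalization. Median differences against iWAT were 2.89, 2.81 and 2.37 in that order, and against eWAT 2.56, 2.38 and 2.17, beside 2.19 and 1.86 for the complex I members; differences between complexes were not tested. In complex II, Sdhb had 1141 ± 90.8 FPKM in BAT against 124 ± 76.6 in iWAT (3.35), and Sdhd, Sdha and Sdhc differed by 3.08, 2.70 and 2.55. In complex III the core proteins Uqcrc1 and Uqcrc2 differed from iWAT by 3.70 and 3.63, cytochrome c1 (Cyc1) by 3.63 and the Rieske protein Uqcrfs1 by 2.95. In complex IV, Cox7b, Cox5b, Cox6a1 and Cox6c differed by 3.43, 3.09, 2.71 and 2.51.

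**Figure D4:**
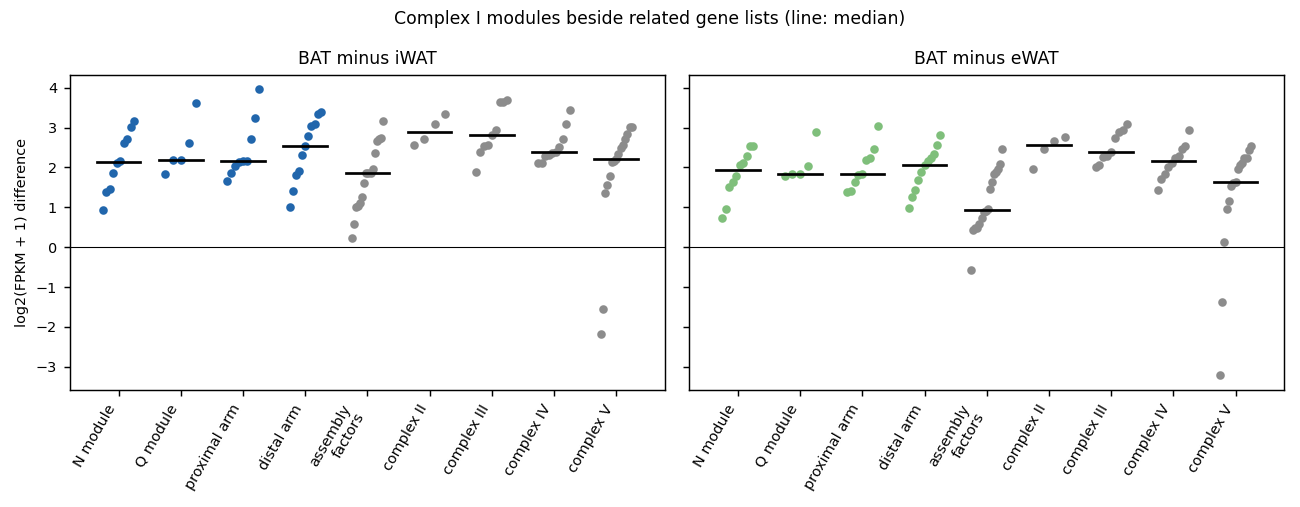
Log2 difference of each gene of the 4 parts of complex I (coloured) and of related lists (grey), BAT minus iWAT on the left and BAT minus eWAT on the right, with a line at each median. All points of the 4 parts are above 0, while 2 genes of complex V (left) and 2 of complex V and 1 assembly factor (right) are below it.

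Reads of some members could be shared with other loci. The coding sequence of 12 members had at least 1 copy elsewhere in the mm9 genome (at least 90% identical over at least 80% of its length; 17 copies in all), most of them in annotated pseudogenes. Ndufb4 was 100% identical to copies on chromosomes 15 and 19, Ndufab1 99.79% and 99.36% to 2 on chromosome 7, and Ndufa12 and Ndufs5 99.5% and 99.38% to copies on chromosomes 5 and 16. Ndufb3, with the smallest difference of the distal arm, had 3 copies, and Ndufa7 had 1. For these 12 members (Ndufa4, Ndufa7, Ndufa11, Ndufa12, Ndufab1, Ndufb2, Ndufb3, Ndufb4, Ndufb11, Ndufs3, Ndufs5 and Ndufs6) the values are uncertain, since how reads with several matches were counted is not given in the sources used here. Exons of 8 members overlapped an exon of a gene on the opposite strand, among them Ndufa2 with Tmco6, Ndufb5 with Mrpl47, Ndufb6 with 2010003O02Rik and Ndufb2 with Braf; Ndufb2 also overlapped Adck2 on its own strand. Whether the counting used strand is not given either, so these values are uncertain too. For the 24 members without a coding copy, 24 were higher than in iWAT and 23 than in eWAT, with medians of 2.18 and 2.05. For the 19 with neither a copy nor such an overlap the counts were 19 and 19, with medians of 2.19 and 2.04 and a smallest difference of 1.39 against iWAT.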

How the data were processed

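Ribosome-bound mRNA from 3 depots, 3 libraries each, was analysed from 1 deposited table. The authors made its FPKM values with TopHat and Cufflinks on mouse build mm9, per the submitters' processing notes, which give no versions; the header names no unit, and the tool and the fractional, unequally summing columns are the grounds for FPKM. Annotation, filters, strand and the treatment of multiply matching reads are not given in the sources used here. The table has 22996 lines; 259 symbols stood on several lines, of which that of highest mean was used, and none of them is a member. No counts or read totals are given, so depth was estimated from genes with 1 transcript of at least 1000 bases, whose low values fall on steps of whole reads (length offset 200 bases); 42.5% to 63.6% of such values lay within 0.15 of a whole read, so whole reads were not recovered and no count test was run.

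Values were tested as log2(FPKM + 1) with limma 3.58.1 (empirical Bayes with trend) in R 4.3.3 over genes that reached 1 FPKM in 3 or more libraries. The fit held all 9 libraries with a mean for each of 3 depots (6 residual degrees of freedom), Benjamini-Hochberg adjustment ran over all tested genes, and calls were made at an adjusted p of 0.05. The script was tested on simulated data. The members, lists and markers were chosen with earlier results of these data known. Genes named are all 36 members, with each library's value for the extremes of each module and members not called, and up to 4 genes of each other list with the largest difference between BAT and iWAT. Dmac1, Adipoq, Ckm, Acta1, Krt5, Krt10 and Krt14 were named after their values were seen. Deviations from the depot means correlated at 0.634, 0.534 and 0.165 between same-numbered libraries of iWAT and eWAT, which pairs these depots by the rule that each exceed 0.1. The pairing comes from the values, not the labels. Unlike-numbered libraries also exceeded 0.1, iWAT 2 with eWAT 3 at 0.228 and iWAT 3 with eWAT 2 at 0.105. The rule alone therefore does not tell numbers 2 and 3 apart. Same-numbered libraries of BAT and iWAT correlated at -0.324, -0.225 and 0.121, and those of BAT and eWAT at -0.388, -0.202 and 0.103. These are over all tested genes. Over the 36 members alone they were 0.478, 0.433 and -0.214 for iWAT and eWAT, 0.269, 0.457 and 0.231 for BAT and iWAT, and -0.0489, 0.109 and -0.0103 for BAT and eWAT, so the rule gives another answer there. Coordinates come from GENCODE vM1 (mm9), copies from minimap2 2.31 and blastn 2.17.0, and promoters from RefSeq (GRCm38.p6). Alternatives were other pseudocounts, filters and scalings, fits of 2 depots alone, weights for arrays, a block for the replicate number, and libraries left out.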

Additional observations from a re-analysis of the deposited data

How the results depend on the processing

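Members higher in BAT numbered 33 to 36 of 36 under all 22 alternatives against iWAT, and 33 to 36 against eWAT except without eWAT 2 and 3 together, where 20 were called; no member's difference between BAT and a white depot changed sign. The members' median moved with quantile normalization to 1.49 against iWAT and 1.39 against eWAT, and with columns rescaled to the same sum to 1.58 against eWAT. Members below the members' median against iWAT numbered 19 with array weights, 6 with a replicate block in a fit of those depots alone and 6 to 12 with 1 library left out. Against eWAT they numbered 3 to 8 with 1 library left out. For these counts the shares over all tested genes are not given. Members lower in iWAT than in eWAT numbered 8 with array weights (18.2% of all tested genes) and 2 with the replicate block in the pair alone (10.2%). With 1 library left out they numbered 0 to 22, the 22 being without iWAT 1 (27.8%). Without iWAT 1 and BAT 3 they numbered 18. The share over all tested genes is not given there, so this count shows no trait particular to the members. With the replicate block in all 9 libraries 36 members were higher than in iWAT and 36 than in eWAT, Ndufa2 being added (adjusted p = 0.0353). In the pair alone Ndufa2 missed the iWAT threshold (adjusted p = 0.0537). Copies were found for 3 members by transcript, 1 at 95% identity, and 12 and 8 by coding sequence. Within 150 bases before the start the GABP core and the YY1 letters occurred in 0 members each. The pair-alone block and the centring were added after the data were seen. Of the 6 white libraries 5 had an estimated depth under 5 M reads, whose part in the spread was not tested; the lowest value of any member was 21.4 FPKM.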

Other observations

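ATP synthase (complex V), which uses the proton gradient, was the respiratory list with genes on both sides. Of 15 subunits, against iWAT 13 were higher in BAT and 2 lower (34.5% and 22.9% of all tested genes). Against eWAT 12 were higher and 2 lower (20.2% and 13.5% of all tested genes), and 1 was not called. The medians were 2.22 and 1.64. Atp5b and Atp5o differed from iWAT by 3.01 each, Atp5d by 2.85 and Atp5a1 by 2.72. Both genes that were lower, also under 3 other scalings, encode the c subunit of the rotor ring. Atp5g1 had 4.88 ± 1.57 FPKM in BAT, against 25.7 ± 8.49 in iWAT and 52.4 ± 2.62 in eWAT (SD, n = 3; log2 differences -2.17 and -3.21), and Atp5g3 had 673 ± 57.1, 1987 ± 54.4 and 1735 ± 98.5 (-1.56 and -1.37). The third c-subunit gene, Atp5g2, was higher in BAT, at 744 ± 48.4 FPKM against 222 ± 77.1 and 334 ± 70.6 (1.79 and 1.17). These 3 genes were chosen for mention after their values were seen, and copies of these genes elsewhere in the genome were not searched for.

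Of 11 tested transcription factors and coactivators known to act on respiratory genes, against iWAT 6 were higher in BAT and 3 lower (34.5% and 22.9% of all tested genes), and against eWAT 6 were higher and none lower (20.2% and 13.5% of all tested genes; 2 lower with columns rescaled to the same sum). Ppara, a nuclear receptor for fatty acids, differed by 3.38 and 3.40, and Ppargc1b, a coactivator, by 2.02 and 1.96. Tfam, which packs mitochondrial DNA, differed by 1.77 and 1.21. Yy1, the factor whose motif letters lie on the start codon of several complex I genes, was lower in BAT than in iWAT, at 33.8 ± 10.7 FPKM against 146 ± 65.3 (-2.01, SE 0.50, limma adjusted p = 0.00688), and was not called against eWAT (91.1 ± 47.1, -1.27, adjusted p = 0.073). Ppargc1a, the best known coactivator of the group, named outside the rule, had 7.75 ± 6.38 FPKM in BAT against 6.98 ± 2.64 in iWAT and was not called (adjusted p = 0.958). These factors were not tested against the members.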
